A study of Mus musculus with 6 samples.

Results

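The mouse genes named Clec encode proteins with a C-type lectin-like domain, a fold that in many members binds sugars and in others binds proteins or lipids. All genes with a symbol of Clec, a number and a letter and a probe set (the group of probes summarised to 1 value) naming a single gene were taken, which gave 33 of the 19938 genes measured. A gene with several such probe sets was represented by its brightest, judged by the mean of all 6 arrays. This concerned only Clec4g, with 2. Total RNA came from 3 established mouse cell lines, each on 1 array unstimulated and on 1 array after 4 h with IFN-β (interferon-beta, of the type I interferons). RAW264.7 is a line of macrophages. NIH3T3 and L929 are fibroblast lines, from mouse embryo and from adult connective tissue. The stated aim of the series was to find genes whose transcription IFN-β regulates. The sources used here do not give the dose of IFN-β, the passage of the lines or how many cultures went into an array. Each of the 6 groups had 1 array, so a difference within a line has no error estimate, and the 3 lines are the replicates of the IFN-β effect.

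Many C-type lectins are surface receptors of myeloid cells that recognise fungi, mycobacteria or damaged cells. Activating members such as Clec7a (Dectin-1), Clec4n (Dectin-2) and Clec4e (Mincle) signal through the kinase Syk and the adaptor Card9, several of them by pairing with the signalling subunits Fcer1g or Tyrobp. Others, such as Clec4a2 and Clec12a, carry an inhibitory tyrosine motif. Several Clec2 genes are different in role: their products are ligands rather than pathogen receptors, and natural killer cells read them with receptors of the Klrb1 family. Clec2d (also Clr-b or Ocil) is the ligand of the inhibitory receptor Klrb1b. Type I interferons act through a transcription factor complex that binds the interferon-stimulated response element (ISRE), a repeat of GAAA blocks.

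Of the 33 genes, 1 rose with IFN-β over the lines, Clec2d, and its promoter is shown because it holds an ISRE core. Promoters were taken from RefSeq (GRCm38.p6), which has 29 windows for 26 of the 33 genes, each from 250 bases before the start of transcription to 50 after it. The ISRE core was searched as GAAANNGAAA on both strands. It occurred in 3.44% of all 32851 windows. Among the 29 Clec windows it occurred in 3, or 10.3%, those of Clec2d, Clec4b1 and Clec4d. Clec2i is printed beside Clec2d as its relative with the next largest mean change and no match. In these lines, each the 250 bases before the start, 5′ to 3′ on the strand of the gene, capitals mark the match to the ISRE core.

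Clec2d, chr6:129180365-129180614, plus strand: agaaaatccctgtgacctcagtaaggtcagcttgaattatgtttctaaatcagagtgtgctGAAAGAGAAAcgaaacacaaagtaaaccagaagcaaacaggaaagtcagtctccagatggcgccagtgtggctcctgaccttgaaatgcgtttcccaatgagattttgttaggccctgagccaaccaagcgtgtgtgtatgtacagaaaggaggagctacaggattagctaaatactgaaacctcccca
Clec2i, chr6:128887337-128887586, plus strand: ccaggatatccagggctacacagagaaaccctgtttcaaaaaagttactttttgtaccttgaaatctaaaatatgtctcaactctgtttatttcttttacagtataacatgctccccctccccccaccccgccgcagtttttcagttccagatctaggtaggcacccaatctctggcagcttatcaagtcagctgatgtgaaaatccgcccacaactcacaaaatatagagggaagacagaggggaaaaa

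The match in Clec2d began at position -189 from the start and lay on the strand of the gene. The other 2 matches are shown within 30 bases, and both lie on the opposite strand, so that the blocks read as TTTC. That of Clec4b1 began at position -75 and that of Clec4d at the first transcribed base.

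Clec4b1, chr6:123049877-123049906, plus strand: taggcatgttTTTCAATTTCctctttccca
Clec4d, chr6:123262097-123262126, plus strand: gctttctcaaTTTCCTTTTCctctttgctc

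Neither Clec4b1 nor Clec4d passed the test for IFN-β, with mean log2 changes of 0.10 and 0.21. Of the 155 windows of the genes that rose over the lines, 47 held the core, or 30.3%. The core of the gamma-activated site, TTCNNNGAA, which reads the same on both strands, occurred in 8.3% of all windows and in 1 Clec window, that of Clec4a2. A match is a description of the letters in this window, and no match is no statement on binding.

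Clec2d rose in all 3 lines. Its log2 level was 7.43 on the unstimulated and 9.48 on the stimulated NIH3T3 array. The L929 arrays read 5.18 and 9.51 in the same order, and the RAW264.7 arrays 4.06 and 7.13. Every stimulated array lay above the unstimulated array of the same line. Across lines the groups overlapped, since unstimulated NIH3T3 was 0.30 above stimulated RAW264.7 on the log2 scale. IFN-β raised it 20.2-fold in L929, 8.42-fold in RAW264.7 and 4.14-fold in NIH3T3. The line with the highest starting level thus had the smallest change, but L929, which started between the others, had the largest.

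The mean log2 change of Clec2d was 3.15 ± 0.34 (SE, n = 3 lines), which is 8.89-fold. In limma its p adjusted over all 19938 genes was 0.00145. Between lines the change had an SD of 1.14. The SE is smaller than this SD would give, since limma moderates the variance of a gene with that of all others. By mean change Clec2d ranked 45 among all genes. At this threshold (adjusted p under 0.05) 0.732% of all genes rose and 0.0% fell, and among the Clec genes 1 rose and 0 fell. At an unadjusted p under 0.05, 1.27% of all genes and 0 Clec genes were lower. The call was lost in 2 alternative fits. With robust variances and a trend the adjusted p was 0.0907, and without cell line in the model it was 0.999964. With any line left out it remained, with mean changes between 2.56 and 3.70. Those fits have fewer lines and lean on the variance of all other genes. The limma adjusted p even fell, to 2.07e-26 without RAW264.7, so it is no measure of how firm the call is.

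On the deposited levels the fibroblast lines started at different levels of Clec2d and read nearly the same after stimulation. Unstimulated NIH3T3 was 4.75-fold above L929, and Clec2d was the 1 Clec gene at least 4-fold higher in that line than in both others, as 1.46% of all genes were. The 3 lines spanned 10.3-fold. After IFN-β the fibroblast lines stood at 9.48 and 9.51, a difference of 0.04 on the log2 scale, and the span of the 3 lines was 5.21-fold. RAW264.7 was then the lowest line, at 7.13, as it had been before. These are the deposited levels, and the median of all genes was 5.49 on the stimulated NIH3T3 array and 5.19 on that of L929. With each array centred on its median the log2 change of Clec2d in NIH3T3 was 1.77, and with quantile normalization it was 2.09. In L929 these settings gave 4.29 and 4.35, so centring lowered the change more in NIH3T3. The near equality of the stimulated fibroblast lines is thus given for the deposited levels only.

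Whether RAW264.7 responded differently from the fibroblasts was tested with an interaction term. For Clec2d the log2 change was 3.07 in RAW264.7 against a fibroblast mean of 3.19, a difference of -0.12 ± 0.49 (SE, limma adjusted p = 0.99996). That fit has 1 residual degree of freedom and gives every gene the same SE, so it sets wide limits on any difference. Over all genes 0.236% passed this test, and of the 33 Clec genes 0 passed. At an unadjusted p under 0.05 it was 1.59% of all genes and also 0 Clec genes.

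The 7 other Clec2 genes measured did not pass the test for IFN-β. Their mean log2 changes lay between -0.01 and 0.52 and their lowest adjusted p in limma was 0.465. Clec2i (Clr-g), another ligand of Klrb1 family receptors, had the largest mean change. Its NIH3T3 arrays read 3.33 unstimulated and 3.82 stimulated, its L929 arrays 3.37 and 3.83, and its RAW264.7 arrays 3.07 and 3.69. The stimulated arrays of Clec2i all lay above the unstimulated ones, by 0.48, 0.46 and 0.62, a spread between lines of only 0.09 (SD). Its mean change was 0.52 ± 0.16 (SE). Here the SE is larger than this SD would give, since limma moderates the variance with that of all other genes. All 6 levels lay under the medians of their arrays, and all but that of stimulated L929 under the lower quartiles. In NIH3T3 the genes with a mean level under the median had a median log2 change of 0.29.

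Clec2g, a further relative, had changes of 0.90 in L929, 0.35 in NIH3T3 and 0.13 in RAW264.7, with a mean of 0.46 ± 0.19 (SE). It and Clec2i were the only other members with an unadjusted p under 0.05 and a higher level, so 3 of 33 Clec genes, or 9.09%, met that looser rule, which 4.2% of all genes also met. Clec2e, Clec2h, Clec2j, Clec2l and Clec2m had mean changes between -0.01 and 0.17. Clec2j is a pseudogene in RefSeq. The Clec2 genes are paralogs of similar sequence, and whether probes of one also catch another was not tested.

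**Figure D1:**
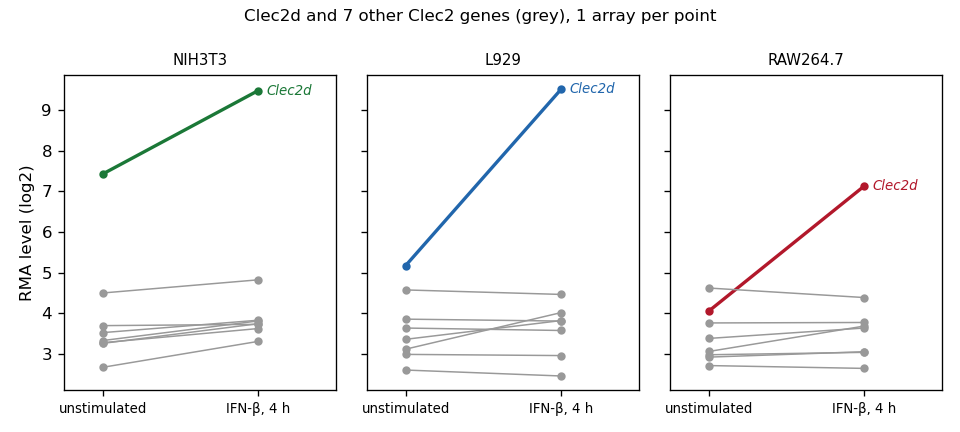
Log2 RMA level (vertical axis) of Clec2d in colour and of the 7 other Clec2 genes in grey, unstimulated and after 4 h of IFN-β, in a panel for each line, with 1 array per point. Clec2d climbs to 9.48, 9.51 and 7.13, while no other Clec2 gene moves by more than 0.90 in any line.

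Clec2d lies on chromosome 6 in the natural killer gene complex, beside its receptor genes. RefSeq places 25 of the 33 Clec genes on chromosome 6. In RefSeq order, 19 measured genes run from Clec2j to Clec7a, 13 of them Clec genes and the other 6 Klrb1 family genes and Cd69. Of the 19, 1 rose in limma, Clec2d, and 4 had an unadjusted p under 0.05 and a higher level, where 0.732% and 4.2% of all genes met these rules. The gene before it, the pseudogene Klrb1-ps1, had a mean log2 change of 0.35 and the gene after it, Cd69, one of 1.09 (adjusted p = 0.643).

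Cd69, a lectin-like activation marker of lymphocytes, changed by 2.53 in RAW264.7 (from a level of 2.97 to 5.50), 0.83 in L929 and -0.08 in NIH3T3. The change in RAW264.7 exceeded the mean change of the fibroblast lines by 2.15, with a limma adjusted p of 0.00799 in the interaction test. The SE of that test is the same for every gene, so this p does not measure the spread of Cd69 itself. Clec2d was higher in every line with IFN-β, and its neighbour in L929 and RAW264.7 but not in NIH3T3. Another 9 measured genes, all Clec genes, run from Clec4a1 to Clec4e. Of these 0 rose in limma, where 0.732% of all genes did. At an unadjusted p under 0.05, 0 were higher, a rule that 4.2% of all genes met. The mean changes of these 9 genes lay between -0.05 and 0.27.

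**Figure D2:**
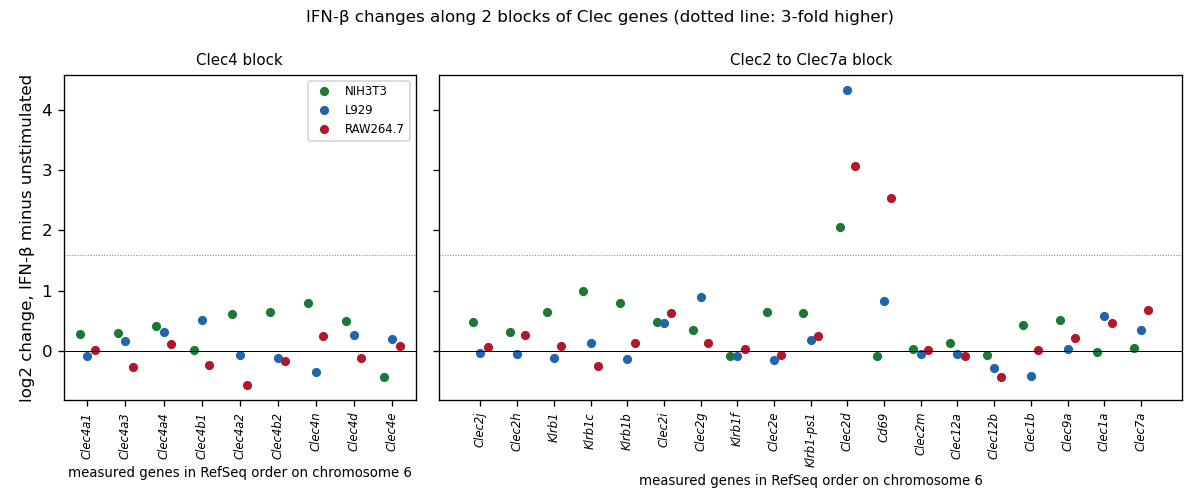
Log2 change with IFN-β (vertical axis) of the measured genes of 2 stretches of chromosome 6 in RefSeq order, 9 genes from Clec4a1 to Clec4e and 19 from Clec2j to Clec7a, with a point for each line and a dotted line at 3-fold higher. Clec2d is above that line in all 3 cell lines, Cd69 in RAW264.7 alone, and no other gene of these stretches in any line.

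The receptor of Clec2d was low in these cells. Klrb1b read 4.00 and 4.79 on the NIH3T3 arrays (unstimulated, then stimulated), 4.17 and 4.04 on those of L929, and 3.98 and 4.12 on those of RAW264.7, all under the medians of their arrays, and a mean log2 change of 0.27 (adjusted p = 0.964). Markers of natural killer cells had median levels from 2.88 to 3.25 over the 6 arrays.

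The remaining members were then compared over the lines for levels that did not depend on treatment. The labelled cell types were checked by their markers, and 14 of 16 macrophage markers were at least 4-fold higher in unstimulated RAW264.7 than in both fibroblast lines. Median levels of the 14 fibroblast markers were 4.64 in RAW264.7, 8.28 in L929 and 10.51 in NIH3T3. At least 4-fold between some pair of unstimulated lines was seen for 7 Clec genes, or 21.2%, and for 8.57% of all genes. Of the 33 Clec genes, 5 were at least 4-fold higher in unstimulated RAW264.7 than in both fibroblast lines, or 15.2%, where 1.81% of all genes were. These were Clec5a, Clec12a, Clec4e, Clec4d and Clec4a3. With 1 unstimulated array per line no test was made. Probe sets differ in how brightly they read, so a level set against the median of its array, here and for other genes, is only a rough guide to abundance.

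Clec5a (MDL-1), which signals through Tyrobp, had a log2 level of 10.93 in unstimulated RAW264.7 and 10.70 after IFN-β. It was at 2.98 and 3.68 in NIH3T3 and at 2.96 on both L929 arrays. Unstimulated RAW264.7 was 247-fold above the higher fibroblast line, a fold that is approximate because the fibroblast levels lay under the lower quartiles of their arrays. The same holds for the folds over the fibroblasts of Clec12a, Clec4e, Clec4d, Clec4a3, Clec7a and Clec4n, all of whose fibroblast levels lay there too. Both RAW264.7 arrays stood far above all 4 fibroblast arrays, and the change with IFN-β in RAW264.7 was -0.22.

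Clec12a, an inhibitory receptor of myeloid cells that recognises uric acid crystals, was at 9.59 and 9.51 in RAW264.7. In the fibroblast lines it was at 2.84 and 2.97 (NIH3T3) and at 2.91 and 2.86 (L929), so that unstimulated RAW264.7 was about 103-fold above the higher of them. Its mean log2 change with IFN-β was -0.0013 ± 0.16 (SE), with a 95% interval from -0.36 to 0.36. Clec12a is the third measured gene after Clec2d in RefSeq order.

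Clec4e and Clec4d (MCL) are neighbours whose products pair with each other and with Fcer1g to sense the mycobacterial glycolipid cord factor. Clec4e was at 9.47 and 9.56 in RAW264.7, against 3.12 and 2.69 in NIH3T3 and 2.75 and 2.95 in L929, and unstimulated RAW264.7 was about 81.5-fold above the higher fibroblast line. Clec4d was at 8.54 and 8.41 in RAW264.7, against 2.84 and 3.34 in NIH3T3 and 2.83 and 3.10 in L929, a difference of about 52.1-fold. For both genes all fibroblast arrays lay below both RAW264.7 arrays. Their mean log2 changes with IFN-β were -0.05 and 0.21, and their 95% intervals ran from -0.45 to 0.35 and from -0.19 to 0.61.

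Clec4a3, a relative of the inhibitory receptor Clec4a2 (DCIR), had a smaller difference. It was at 5.40 and 5.13 in RAW264.7, against 3.04 and 3.33 in NIH3T3 and 2.94 and 3.10 in L929. Unstimulated RAW264.7 was 5.12-fold above the higher fibroblast line, and stimulated RAW264.7 was 3.48-fold above the higher stimulated fibroblast line, under the 4-fold rule.

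The signalling partners of these receptors were also higher in RAW264.7. Tyrobp was at 11.61 in unstimulated RAW264.7 against 4.61 in NIH3T3 and 4.33 in L929. Fcer1g was at 11.40 against 4.88 and 4.21. Syk was at 6.54 against 4.05 and 4.40, and Card9 at 6.45 against 4.51 and 4.53. Of 28 adaptor and signalling genes measured, 13 were at least 4-fold higher in unstimulated RAW264.7 than in both fibroblast lines, where 1.81% of all genes were. Over the lines 0 rose and 0 fell with IFN-β in limma, where 0.732% and 0.0% of all genes did. At an unadjusted p under 0.05, 0 were higher and 0 lower, where 4.2% and 1.27% of all genes were. Within a line 1 was at least 3-fold higher, in L929, where 0.893% of all genes were. This was Irf5, a transcription factor of inflammatory genes, with a log2 change of 2.03. The mean changes of Fcer1g, Tyrobp, Syk and Card9 were -0.14, 0.14, -0.06 and -0.27.

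**Figure D3:**
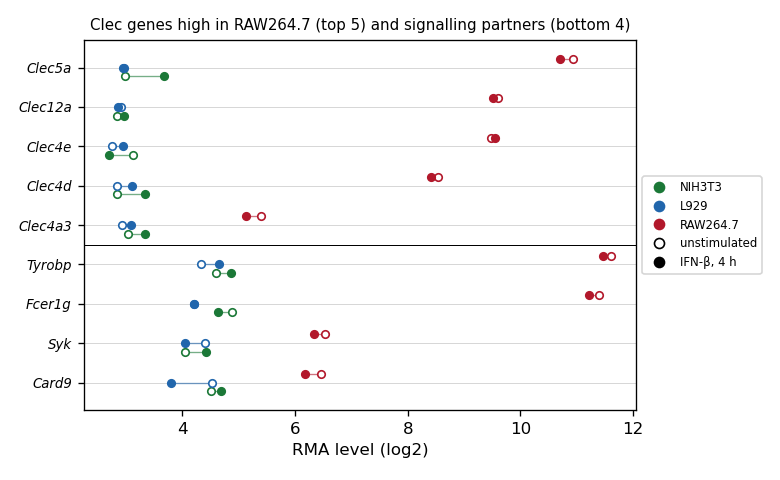
Log2 RMA level (horizontal axis) of the 5 Clec genes at least 4-fold higher in unstimulated RAW264.7 than in both fibroblast lines, above the black line, and of 4 signalling partners below it. Open points are unstimulated arrays and filled points arrays after IFN-β. The RAW264.7 points of each gene lie to the right of all its fibroblast points and move by less than 0.3 with IFN-β.

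The promoters of the 4 genes with the widest difference are shown for a motif they share, GAGGAA, the purine-rich core to which the macrophage transcription factor PU.1 binds. It was searched on both strands, after the levels were known. Capitals mark the matches in the 250 bases before the start, and TTCCTC is a match on the opposite strand.

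Clec5a, chr6:40585806-40586055, minus strand: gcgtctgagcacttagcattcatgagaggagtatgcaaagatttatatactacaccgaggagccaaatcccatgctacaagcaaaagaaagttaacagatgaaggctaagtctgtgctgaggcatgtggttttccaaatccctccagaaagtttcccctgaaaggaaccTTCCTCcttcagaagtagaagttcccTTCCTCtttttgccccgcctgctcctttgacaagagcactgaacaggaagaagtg
Clec12a, chr6:129349994-129350243, plus strand: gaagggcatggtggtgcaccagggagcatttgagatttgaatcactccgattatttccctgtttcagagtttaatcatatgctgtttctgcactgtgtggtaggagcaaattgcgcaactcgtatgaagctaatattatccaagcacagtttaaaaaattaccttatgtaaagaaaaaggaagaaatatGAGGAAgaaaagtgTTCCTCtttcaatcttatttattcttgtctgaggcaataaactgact
Clec4e, chr6:123289872-123290121, minus strand: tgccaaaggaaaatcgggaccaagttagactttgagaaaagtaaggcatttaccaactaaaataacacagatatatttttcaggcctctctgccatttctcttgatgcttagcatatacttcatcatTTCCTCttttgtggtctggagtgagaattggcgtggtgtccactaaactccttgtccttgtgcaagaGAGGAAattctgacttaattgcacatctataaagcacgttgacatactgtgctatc
Clec4d, chr6:123261857-123262106, plus strand: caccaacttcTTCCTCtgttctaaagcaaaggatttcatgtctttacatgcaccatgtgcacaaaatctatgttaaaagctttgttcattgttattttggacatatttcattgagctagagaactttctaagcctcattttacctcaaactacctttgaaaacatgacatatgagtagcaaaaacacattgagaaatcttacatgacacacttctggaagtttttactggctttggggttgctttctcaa

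Clec5a, Clec12a and Clec4e each held 2 matches before the start and Clec4d held 1, with 2 more just after it. The core is short, and 28.3% of all windows held it. It occurred in 16 of the 29 Clec windows, or 55.2%, among them those of Clec11a, Clec14a, Clec16a and Clec18a, which were not higher in RAW264.7 by the 4-fold rule.

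Several well-known receptors of macrophages and dendritic cells read near or under the array medians in RAW264.7. Clec7a, the receptor of fungal beta-glucan, was at 4.83 and 5.51 there, against 3.62 and 3.67 in NIH3T3 and 3.22 and 3.56 in L929. Unstimulated RAW264.7 was 2.32-fold above the higher fibroblast line. Its level in RAW264.7 moved by 0.68 with IFN-β, and its mean log2 change over the lines was 0.36 (95% interval -0.04 to 0.76, adjusted p = 0.957). Clec4n, the receptor of fungal mannans, was at 3.85 and 4.09 in RAW264.7, under the array medians, and unstimulated RAW264.7 was 1.54-fold above the higher fibroblast line. Clec4a2 was at 3.93 and 3.36 in RAW264.7 and at most 3.12 elsewhere. Clec10a, a galactose receptor of macrophages, lay between 3.17 and 3.47 on all 6 arrays, and Clec9a, which marks cross-presenting dendritic cells and binds exposed actin filaments, between 2.48 and 3.01.

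Clec11a was the member higher in L929. It encodes a secreted growth factor of bone marrow stroma and is no pathogen receptor. Its log2 level was 8.23 in unstimulated L929 and 7.62 after IFN-β, against 5.65 and 6.06 in NIH3T3 and 5.85 and 5.15 in RAW264.7. Unstimulated L929 was 5.20-fold above the higher of the other lines, as 0.602% of all genes were by at least 4-fold, and both L929 arrays lay above the other 4. With IFN-β the change of Clec11a was -0.71 in RAW264.7, -0.62 in L929 and 0.41 in NIH3T3. Its mean change of -0.31 ± 0.23 (SE) did not pass (adjusted p = 0.964).

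Clec16a read at nearly the same level everywhere. It encodes a cytosolic regulator of endosomes and autophagy that is broadly expressed. It lay between 6.88 and 7.13 on all 6 arrays, with changes of -0.13, -0.0033 and 0.11 in NIH3T3, L929 and RAW264.7.

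Most other members lay low in all 3 lines. Of the 33 genes, 23 were under the median of all genes on all 6 arrays, or 69.7%, compared with 41.3% of all genes. These included Clec1b, the platelet receptor of podoplanin, Clec4f, a marker of liver macrophages, Clec4g, a receptor of liver sinusoidal endothelium, Clec14a, an endothelial protein, Clec3a, of cartilage, and Clec3b, the plasminogen-binding protein tetranectin. Pdpn, the ligand of Clec1b, was itself high in the fibroblasts, at 10.23 in NIH3T3 and 8.04 in L929 against 4.67 in RAW264.7, and had a mean log2 change of -0.28 with IFN-β. A low level on an array is not proof that a transcript was absent. Markers of platelets, endothelium and dendritic cells had median levels between 3.73 and 4.65 over the 6 arrays.

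**Figure D4:**
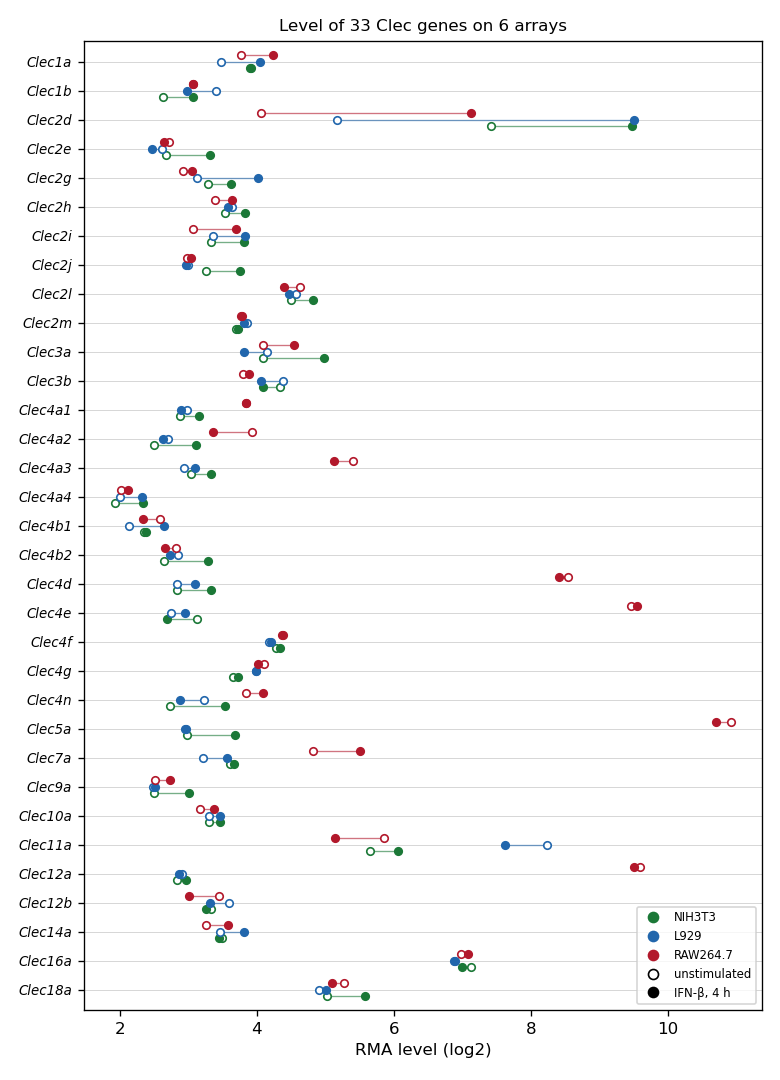
Log2 RMA level (horizontal axis) of the 33 Clec genes, in the order of their names. Open points are unstimulated arrays, filled points arrays after 4 h of IFN-β, and colours the 3 lines. Clec2d has the longest shifts in every line, Clec5a, Clec12a, Clec4e and Clec4d are split between RAW264.7 and the fibroblasts, and Clec16a stays between 6.88 and 7.13.

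Within each line, changes were counted at 3-fold, the rule of the series' own description. In NIH3T3 1 Clec gene was at least 3-fold higher, where 0.476% of all genes were. In L929 it was 1, against 0.893% of all genes, and in RAW264.7 1, against 0.617%. In each line the gene was Clec2d, and no Clec gene was 3-fold lower, where 0.0401%, 0.01% and 0.0% of all genes were. The counts were the same at 2-fold, against backgrounds of 1.73%, 1.57% and 1.14% higher. Outside Clec2d the widest changes were 0.90 for Clec3a in NIH3T3, 0.90 for Clec2g in L929 and -0.71 for Clec11a in RAW264.7. The 95% intervals of the mean change of these 32 genes all lay between -0.81 and 0.88, while that of Clec2d ran from 2.40 to 3.90. All 95% intervals given here use the SE of limma, which is pooled in part over all genes. For Clec2d the changes of 2.05 in NIH3T3 and 4.33 in L929 lay outside its interval, so it does not describe the spread between lines.

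In NIH3T3 27 of the 33 Clec genes read higher on the stimulated array, with a median log2 change of 0.32. That is 81.8%, beside 68.3% of all genes and 82.3% of the genes with a mean level under the median. The stimulated NIH3T3 array read higher as a whole: the median change of all genes was 0.17, and that of these lower genes was 0.29. With each array centred on its median the Clec median in NIH3T3 was 0.05, beside -0.11 for all genes. Centring shifts all genes alike, so the Clec median stayed above that of all genes. After quantile normalization the Clec median was 0.03, beside 0.0012 for all genes. In L929 and RAW264.7 the Clec medians were -0.0033 and 0.011, beside -0.05 and -0.03 for all genes. Over the lines 7 Clec genes were higher in all 3, or 21.2%, beside 15.5% of all genes, and 1, Clec12b, was lower in all 3, beside 11.4%.

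Related genes were read from lists. One held 53 other C-type lectins measured, among them the mannose receptors, the Cd209 genes and the Klra and Klrb1 receptors. Of these 0 rose and 0 fell over the lines in limma, where 0.732% and 0.0% of all genes did. At an unadjusted p under 0.05, 4 of the 53 were higher and 0 lower, beside 4.2% and 1.27% of all genes. The list had a median mean log2 change of 0.05 beside 0.03 for all genes. Cd69, Klrk1 (NKG2D) and Klra3 had the largest mean changes of the list, 1.09, 0.61 and 0.51. Of 14 ligands and partners, 1 rose in limma, where 0.732% of all genes did. This was Lgals9, a galactose-binding galectin that has been described as a Clec7a ligand. Its NIH3T3 arrays read 7.26 and 9.64, its L929 arrays 8.54 and 10.85, and its RAW264.7 arrays 8.33 and 10.57. The 3 changes of 2.38, 2.31 and 2.24 were close, with a mean of 2.31 ± 0.16 (SE moderated over all genes, limma adjusted p = 9.79e-05). Of 20 targets of lectin receptor signalling 0 rose in limma, where 0.732% of all genes did. At an unadjusted p under 0.05, 9 were higher, a rule that 4.2% of all genes met. Il6, Cd40 and Ccl4 had mean changes of 1.88, 1.63 and 1.04. These were uneven: Il6 changed by 3.96 in L929 and 0.55 in RAW264.7, and Cd40 by 0.01 in NIH3T3 and 2.63 in RAW264.7.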

How the data were processed

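Per the labels' protocols, total RNA was purified on columns and labelled with the Affymetrix WT kit. Per the submitters' processing notes, the authors made the deposited log2 values with RMA, which corrects background, normalizes between arrays and summarises each probe set. The sources used here give no version or settings, and base 2 was inferred from the range of the values. The platform annotation names 1 gene for 21789 of 35557 probe sets. Symbols were updated by Entrez ID through RefSeq, which lacked 91 of these probe sets and changed 0 symbols. No filter on low levels was applied.

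Treatment was fitted to all 6 arrays with the cell line as a block in limma 3.58.1 (R 4.3.3). The fit had 2 residual degrees of freedom and a prior of 7.87. P-values were adjusted by Benjamini-Hochberg over 19938 genes. The pairing comes from the shared cell line. The interaction for RAW264.7 used the same package. Both were tested on simulated data. Tables and figures were made with Python 3.11.15 (pandas 2.3.3, numpy 2.4.6, matplotlib 3.10.9). With no label on cultures, p-values measure only the spread between these arrays, whose number limits precision. That spread is pooled in part over all genes, and wholly so for the interaction, where every gene has the same SE. The members and lists were chosen with earlier results of these data known. Values on every array are given for members that passed the test, changed 2-fold in a line, exceeded an array's upper quartile or differed 4-fold between unstimulated lines, and for others chosen after their values were seen. Promoters were matched by symbol. Coordinates are given for RefSeq promoter windows (GRCm38.p6) and not for probe sets, since the sources used here do not name the build of the array. Alternatives were another probe set rule, centring, quantile normalization, a level filter, a variance trend, robust variances, no block, other thresholds and each line left out.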

Additional observations from a re-analysis of the deposited data

How the results depend on the processing

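Over 13 results and 103 comparisons with an alternative setting, 98 kept their side of the threshold, or for a count stayed within 1.5 times. Direction was compared only for Clec2d, the called gene, and its mean change was above 0 in every setting. Small mean changes of genes that were not called could change sign. That of Clec4a3 was 0.06 in the main fit and -0.04 with median centring. Without the replicate block for cell line 0 Clec genes were called instead of 1, and Clec2d had an adjusted p of 0.999964; in that fit 2 genes rose in all. With robust empirical Bayes and a trend it was again 0 Clec genes, with an adjusted p of 0.0907 for Clec2d; the cause was not tested. At 5-fold 0 Clec genes changed in NIH3T3, where Clec2d was 4.14-fold higher. With each line left out in turn the count was 1 each time and the mean change of Clec2d ran from 2.56 to 3.70. These fits have fewer lines and lean on the variance of other genes, so the calls add little to the mean changes. In 8 of 10 alternatives Clec2d was called, with adjusted p-values up to 0.00624. At least 4-fold between lines was seen for 7 Clec genes on the unstimulated arrays and also for 7 on the stimulated ones, a setting chosen after seeing the data. Low signal limits what can be seen: 14 to 26 of the 33 Clec genes lay under the lower quartile, depending on the array, and no replicate array measures the noise there.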
